A study of Homo sapiens with 4 samples.

Results

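Of 8 transcription factors that specify endodermal organs, 5 were lower in TD cells than in parental A549 cells and none was called higher. Among all 17785 tested genes, 21.4% were called lower and 21.6% higher, 43.0% in all (adjusted p under 0.05). The genes are HNF4A, HNF4G, FOXA1, FOXA2, FOXA3, GATA6, CDX2 and CEBPA, taken by symbol from the 57820 genes in the count files, and all 8 were matched. FOXA1 and FOXA3 showed changes of about 10-fold, HNF4A, HNF4G and FOXA2 of 2.10 to 3.25-fold, and GATA6 differed by less than the test could call. CDX2 and CEBPA had too few counts in either cell line for a change to be read with confidence.

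The data were RNA-seq counts from 4 libraries, 2 of parental A549 and 2 of TD. A549 is an established human line from a lung adenocarcinoma. TD cells are A549 cells of mesenchymal-like morphology given TGF-β, transforming growth factor beta, in doses of 2 ng/ml every 3 days. Both lines grew in DMEM with 10% fetal bovine serum and gentamycin, and neither a genetic change nor the number of clones behind TD is given in the labels. The labels do not tell whether replicates are separate cultures, so the p-values measure only how far these libraries differ, and that spread may be technical. The libraries were made from mRNA with a strand-specific kit.

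These factors form a network that builds and maintains liver, gut, pancreas and lung epithelium. FOXA proteins are pioneer factors, which bind closed chromatin through a forkhead domain and let other factors in. HNF4A and HNF4G are nuclear receptors that bind DNA as dimers and drive genes of lipid transport, coagulation and the absorptive surface. GATA6 is a zinc finger factor of early endoderm and of lung and gut epithelium. CDX2 is the homeodomain factor of the intestine, and CEBPA is a leucine zipper factor of liver, fat, myeloid and alveolar cells. TGF-β is known to drive epithelial cells toward a mesenchymal state, and the comparison asks how the RNA of cells held in that state differs from that of the parental line.

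HNF4A is transcribed from 2 start sites, and counts per gene merge them. The upstream sequence of each is shown because the total for HNF4A, the highest of the 8 factors per kilobase of exon, cannot be divided between them. The distal start is known as P2 and the proximal start, used in adult liver, as P1. Both windows hold the 250 bases before the start, from RefSeq on GRCh38.p14, + strand, at chr20:44355449-44355698 and chr20:44400989-44401238. The counts were made on hg19 (GRCh37), so these positions serve the sequences only. Capitals mark matches on either strand to AGATAA (the GATA core) and GGTCA (an HNF4 core).
HNF4A distal window: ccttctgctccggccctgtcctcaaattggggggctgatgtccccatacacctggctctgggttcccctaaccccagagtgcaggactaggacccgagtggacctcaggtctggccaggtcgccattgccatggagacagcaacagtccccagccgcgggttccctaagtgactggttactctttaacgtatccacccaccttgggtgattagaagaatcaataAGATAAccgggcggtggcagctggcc
HNF4A proximal window: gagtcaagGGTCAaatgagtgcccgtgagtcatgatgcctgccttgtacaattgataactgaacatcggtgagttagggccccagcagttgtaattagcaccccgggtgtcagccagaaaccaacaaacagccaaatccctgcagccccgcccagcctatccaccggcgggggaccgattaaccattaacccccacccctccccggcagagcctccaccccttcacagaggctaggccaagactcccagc

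The distal window held 1 GATA core, 26 to 21 bases before the start. The proximal window held 1 HNF4 core, 242 to 238 bases before the start. Over all 35116 RefSeq windows of the same length, 9.17% held AGATAA and 32.6% held GGTCA. A match is a run of letters and not a measured binding site. RefSeq windows were matched for 6 of the 8 genes. Forkhead cores, TGTTTAC and TGTTTGC, were also searched on both strands. Each was present in 1 of the 7 windows of these genes, against 2.98% and 3.23% of all windows. The stretches around them are given because FOXA1 and CDX2 are themselves members of the network, with the match in capitals, from the - strand of GRCh38.p14 at chr14:37595468-37595494 and chr13:27969316-27969338.
FOXA1 stretch: acactgctttGCAAACAaagtgagggc
CDX2 stretch: atagagtcttGTAAACActcgtt

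Libraries held 26729278 to 44133836 gene counts, at which 3 counts correspond to 0.0738 to 0.108 CPM (counts after TMM scaling to a common library size, the unit of all levels here). The libraries matched their labels by the epithelial and mesenchymal markers: 4 of 5 epithelial markers were called lower in TD and 5 of 5 mesenchymal markers higher. EPCAM, an epithelial adhesion molecule, averaged 150.5 CPM in the A549 libraries and 0.15 CPM in the TD libraries. The defining alveolar markers SFTPB, SFTPC, SFTPA1 and NKX2-1 had at most 6 counts in any library of either line, while NAPSA, the fifth marker of that list, averaged 2.17 CPM in A549 libraries and 0.984 CPM in TD libraries. Among the lung and secretory genes, the surfactant protein gene SFTPD had 90 and 77 counts in A549 and 2 and 0 in TD, and ABCA3 was detected in both lines. The hepatocyte markers ALB, APOA2, TTR, TAT and CYP3A4 summed to 1.01 to 1.04 CPM in A549 and 0.0345 to 0.0738 CPM in TD, with APOA2 at 0 in all 4 libraries. Leukocyte, endothelial and fibroblast markers each summed to at most 1.65 CPM in any library. CD3E was at 0 throughout. Single markers of these lists did differ between the lines. The endothelial receptors TEK and KDR had 0 counts in A549, and TD counts of 6 and 16 for TEK and 13 and 9 for KDR. LUM, a matrix proteoglycan of fibroblasts, was lower in TD, with 38 and 42 counts in A549 and 5 and 6 in TD (edgeR, adjusted p = 0.00274). CD14, a monocyte receptor, had 23 and 23 counts in A549 and 10 and 7 in TD (0.049), a call lost under 6 alternatives. The part of other cells in the results below was not tested.

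The HNF4 receptors were both lower in TD. HNF4A (ENSG00000101076) had 214.2 and 214.1 CPM in the A549 libraries and 72.6 and 81.3 CPM in the TD libraries. The A549 pair lay well above the TD pair. Its mean went from 214.1 ± 0.0195 to 76.96 ± 6.14 CPM (SD, n = 2), which is -1.48 with an SE of 0.09 on the log2 scale (adjusted p = 0.000334 by edgeR's quasi-likelihood test). HNF4A RNA was thus reduced 2.78-fold. HNF4G (ENSG00000164749), the paralog best known from intestine, had 5.46 and 4.92 CPM in A549 and 1.21 and 1.97 CPM in TD, again without overlap. Its log2 change was -1.70 with an SE of 0.29 (edgeR, adjusted p = 0.00925), a 3.25-fold reduction. The call for HNF4G was lost when 1 A549 library was left out (adjusted p = 0.0867 without A549 replicate 1 and 0.0579 without replicate 2 by edgeR), with log2 changes of -1.63 and -1.80. In bulk RNA, fewer cells expressing a gene and less RNA per cell cannot be told apart.

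**Figure D1:**
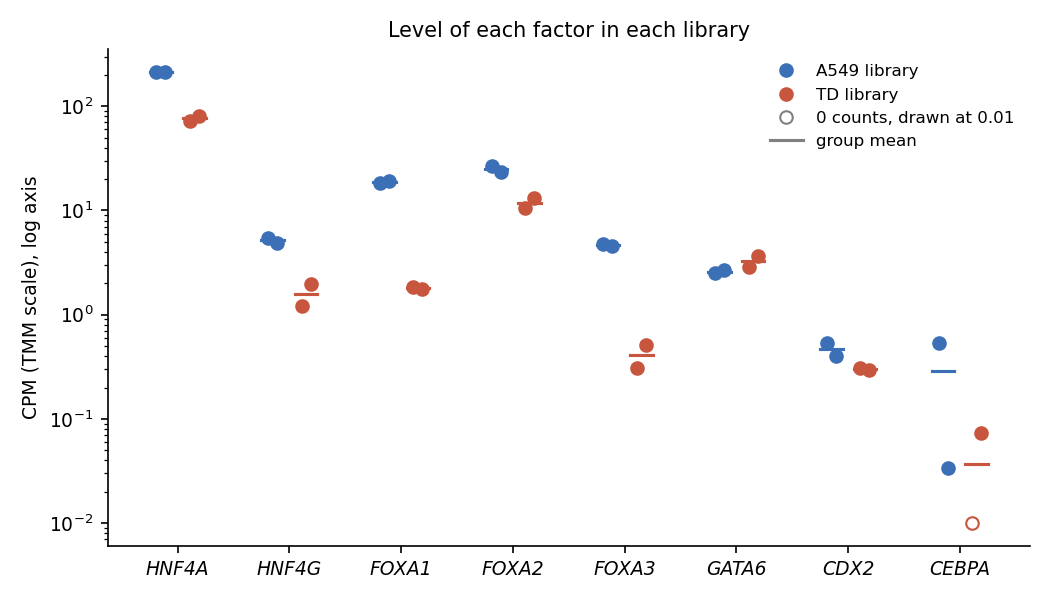
CPM on the TMM scale (log axis) of the 8 factors, with 1 point per library, 2 A549 and 2 TD libraries per gene, and a line at each group mean. HNF4A, HNF4G, FOXA1, FOXA2 and FOXA3 lie lower in TD (HNF4A at 72.6 and 81.3 against 214.1 and 214.2 CPM), GATA6 lies slightly higher, and CEBPA is scattered.

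All 3 FOXA genes were lower in TD, FOXA2 by the smallest fold. FOXA1 (ENSG00000129514) had 18.2 and 18.98 CPM in A549 and 1.83 and 1.77 CPM in TD. The replicates nearly coincided in each line. Its log2 change was -3.37 with an SE of 0.12 (edgeR, adjusted p = 7.43e-05), a 10.3-fold reduction. FOXA3 (ENSG00000170608), a FOXA gene of liver and gut, had 4.78 and 4.58 CPM in A549 and 0.31 and 0.516 CPM in TD. It stood on 9 and 21 counts in the TD libraries, far under either A549 value. The log2 change of FOXA3 was -3.47 with an SE of 0.32 (edgeR, adjusted p = 0.00127), and the ratio by counts was 10.9-fold with a 95% exact interval of 7.44 to 16.4 that covers counting error only. FOXA2 (ENSG00000125798), which is needed for definitive endoderm and lung epithelium, had 26.6 and 23.3 CPM in A549 and 10.6 and 13.1 CPM in TD. Both TD libraries lay under both A549 libraries, but the gap was narrower than for the other FOXA genes. Its log2 change was -1.07 with an SE of 0.14 (edgeR, adjusted p = 0.00402), a 2.10-fold reduction. This call was lost without A549 replicate 1 (log2 change -0.98, adjusted p = 0.0529 by edgeR).

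FOXA2 made up a larger share of FOXA RNA in the TD libraries. Ratios of counts within a library need no scaling. FOXA1 counts per FOXA2 count were 0.685 and 0.815 in A549 and 0.173 and 0.135 in TD. The mean ratio was 4.87-fold lower in TD. FOXA3 per FOXA2 was 0.18 and 0.197 in A549 and 0.0293 and 0.0395 in TD, 5.48-fold lower. FOXA1 per FOXA3 overlapped between the lines, at 3.81 and 4.14 in A549 and 5.89 and 3.43 in TD. HNF4G per HNF4A overlapped too, at 0.0255 and 0.023 in A549 and 0.0166 and 0.0242 in TD. The 8 ratios computed share genes, so they are not separate results. Of them, 6 did not overlap between the lines, each with an exact two-sided permutation p of 0.333 (0.444 after adjustment over the 8). That is the smallest p that 2 libraries against 2 allow, so no ratio could reach 0.05. Per kilobase of exon, FOXA2 made up 60.2% and 56.6% of the summed FOXA level in A549 and 87.1% and 88.1% in TD. FOXA1 went from 26.9% and 30.2% to 9.83% and 7.79%.

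**Figure D2:**
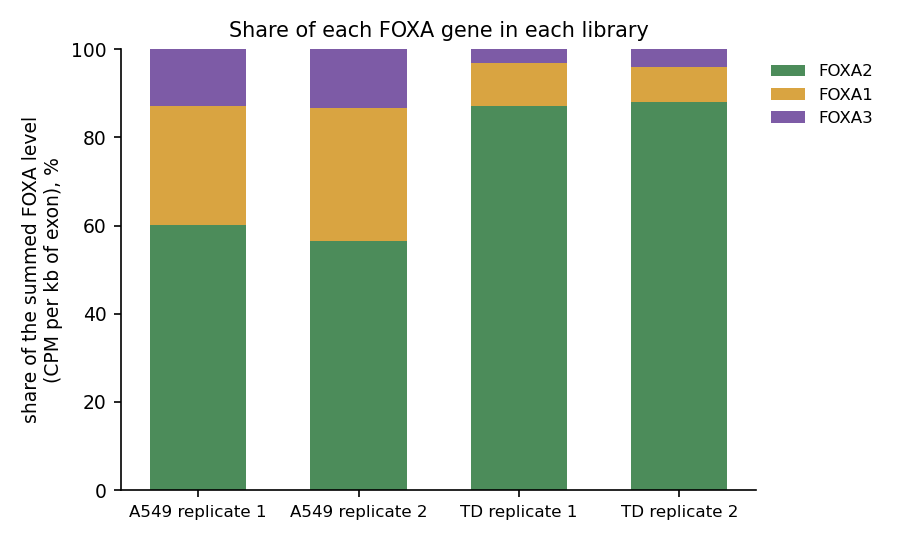
Stacked bars of the share (percent) of FOXA2, FOXA1 and FOXA3 in the summed FOXA level per kilobase of exon, 1 bar per library. FOXA2 takes 56.6% to 60.2% in the A549 libraries and 87.1% to 88.1% in the TD libraries.

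GATA6 (ENSG00000141448) was not called in either direction. It had 2.52 and 2.66 CPM in A549 and 2.90 and 3.69 CPM in TD. The TD libraries were the higher ones, without overlap but with a gap smaller than the spread of the TD pair. The log2 change was 0.35 (SE 0.22) and was not called (adjusted p = 0.268 by edgeR). By counts GATA6 was 1.30-fold higher, with an exact interval for counting error alone of 1.05 to 1.60. Without TD replicate 1 it was called higher (log2 change 0.51, adjusted p = 0.0424 by edgeR). Relative to HNF4A, GATA6 stood at 0.0117 and 0.0124 counts per HNF4A count in A549 and at 0.0399 and 0.0454 in TD. Relative to FOXA2 it was at 0.0947 and 0.114 in A549 and at 0.274 and 0.282 in TD. Both ratios were higher in the TD libraries, without overlap.

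CDX2 (ENSG00000165556) had 15 and 12 counts in A549 and 9 and 12 in TD. These are 0.539 and 0.405 CPM against 0.31 and 0.295 CPM. The log2 change was -0.63 with an SE of 0.45 (edgeR, adjusted p = 0.323), and the counting interval of the fold reduction, 0.848 to 2.90, held both no change and a near 3-fold fall. CEBPA (ENSG00000245848) was not tested, since it did not pass the filter on low counts. Its counts were 15 and 1 in the A549 libraries and 0 and 3 in the TD libraries. All but 1 of the 16 counts of the A549 pair came from 1 library, and the other A549 library lay between the TD libraries in CPM. The ratio by counts was 6.46-fold lower in TD with an exact interval of 1.85 to 34.6, which covers counting error only. Without A549 replicate 1 the count was 1 in A549 and 3 in TD, at 0.0337 CPM against a TD mean of 0.0369 CPM, so the direction rests on that library. With no filter CEBPA was not called (log2 change -2.67, adjusted p = 0.113 by edgeR).

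Of the 8 factors, 7 passed the filter, 5 were called lower in TD and none higher, with GATA6 and CDX2 not called. The share called lower among all tested genes was 21.4%. The median log2 change of the 7 was -1.48, against -0.04 over all tested genes. FOXA3 and CDX2 passed the filter on low counts through the A549 libraries alone. The count called lower and the median thus describe the tested genes only. FOXA3 and FOXA1 had a lower change than all but 3.81% and 3.99% of tested genes, HNF4G, HNF4A and FOXA2 than all but 8.95%, 10.6% and 15.3%. Without A549 replicate 1, HNF4G and FOXA2 were not called, with log2 changes of -1.63 and -0.98. Fewer genes were called over the whole table in that fit too.

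Per kilobase of exon, the order of levels in A549 was HNF4A (29.3 CPM per kb), FOXA2 (9.57), FOXA1 (4.67), FOXA3 (2.14), HNF4G (1.08), GATA6 (0.656), CDX2 (0.114) and CEBPA (0.109). Neighbours in this order did not overlap between libraries, except CDX2 and CEBPA. In TD the order was HNF4A (10.5 CPM per kb), FOXA2 (4.55), GATA6 (0.834), FOXA1 (0.452), HNF4G (0.33), FOXA3 (0.189), CDX2 (0.0734) and CEBPA (0.014). GATA6 moved from the sixth place to the third and FOXA3 from the fourth to the sixth. HNF4G and FOXA3 lay close to each other in TD, at 0.251 and 0.409 against 0.142 and 0.236 CPM per kb.

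Family members outside the 8 gave a mixed picture. Of 12 paralogs in the GATA, CDX and C/EBP families, 7 could be tested, 4 were called lower and none higher, with a median log2 change of -0.90, where 21.4% of all tested genes were called lower and 21.6% higher. CEBPD, a C/EBP factor of acute inflammation, went from 13.1 ± 2.51 to 3.52 ± 0.690 CPM (adjusted p = 0.00268 by edgeR). DDIT3, the stress-induced C/EBP factor CHOP, went from 11.95 ± 0.785 to 4.20 ± 0.647 CPM. GATA2, best known from blood and endothelium, went from 2.82 ± 0.0780 to 1.18 ± 0.00614 CPM. CEBPB, a C/EBP factor of inflammation and of fat cell differentiation, went from 68.8 ± 6.69 to 36.8 ± 6.99 CPM. GATA2 lost its call without A549 replicate 1 (edgeR, adjusted p = 0.0857) and without replicate 2 (0.0669). CEBPB was not called without A549 replicate 1 either (log2 change -0.80). The members not called were GATA3, with means of 2.01 (A549) and 2.69 CPM (TD), GATA4, with 3.07 and 1.88 CPM, and CEBPG, with 88.9 and 99.8 CPM. GATA4 missed the threshold (edgeR, adjusted p = 0.0639) and was called lower by limma-voom (0.0428), with pseudogenes left out (0.00721) and without either TD library (0.00812 and 0.0259). GATA3 was called higher without TD replicate 1 (adjusted p = 0.00722 by edgeR). CEBPG was called higher by DESeq2 (adjusted p = 0.0319), with a log2 change of 0.18. GATA6 per GATA4 count was 0.933 and 0.775 in A549 and 1.5 and 2.03 in TD. GATA1, GATA5, CDX1, CDX4 and CEBPE had no count in any library.

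Among other factors of the same network, more of the tested genes were called lower than higher. Of 24 listed, 23 were matched and 17 tested, of which 10 were called lower and 2 higher, with a median log2 change of -1.62, where 21.4% of all tested genes were called lower and 21.6% higher. Some passed the filter on low counts through 1 line alone, ONECUT3 and NR1H4 through A549 and PROX1 through TD, so these counts describe the tested genes only. PPARGC1A, a coactivator of HNF4A and of mitochondrial genes, went from 22.6 ± 1.71 to 0.551 ± 0.195 CPM (edgeR log2 change -5.31 with an SE of 0.24, adjusted p = 0.000143). NR1H4, the bile acid receptor FXR, went from 1.995 ± 0.230 to 0.108 ± 0.0556 CPM. KLF5, a Kruppel-like factor of gut and lung epithelium, went from 114 ± 6.01 to 20.95 ± 2.05 CPM. ONECUT3 had 59 and 40 counts in A549 and 0 in TD, at least 39.99-fold lower with 3 counts set over the TD pair.

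The 2 network factors called higher were PROX1 and SOX9. PROX1, a homeodomain factor of liver and lymphatic endothelium, had 0 and 1 counts in A549 and 18 and 38 in TD, a ratio of 46.2 with a counting interval of 7.96 to 1857. SOX9, a factor of progenitors and of cartilage, rose from 18.5 ± 0.102 to 42.6 ± 2.77 CPM (edgeR log2 change 1.21 with an SE of 0.09, adjusted p = 0.000567). PROX1 was not called without A549 replicate 1 (log2 change 4.39). Among the factors called lower, ONECUT3 and SOX17 were not called without that library either (log2 changes -8.48 and -1.49). ONECUT2 and EOMES were called higher without TD replicate 1 (log2 changes 0.32 and 1.01).

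**Figure D3:**
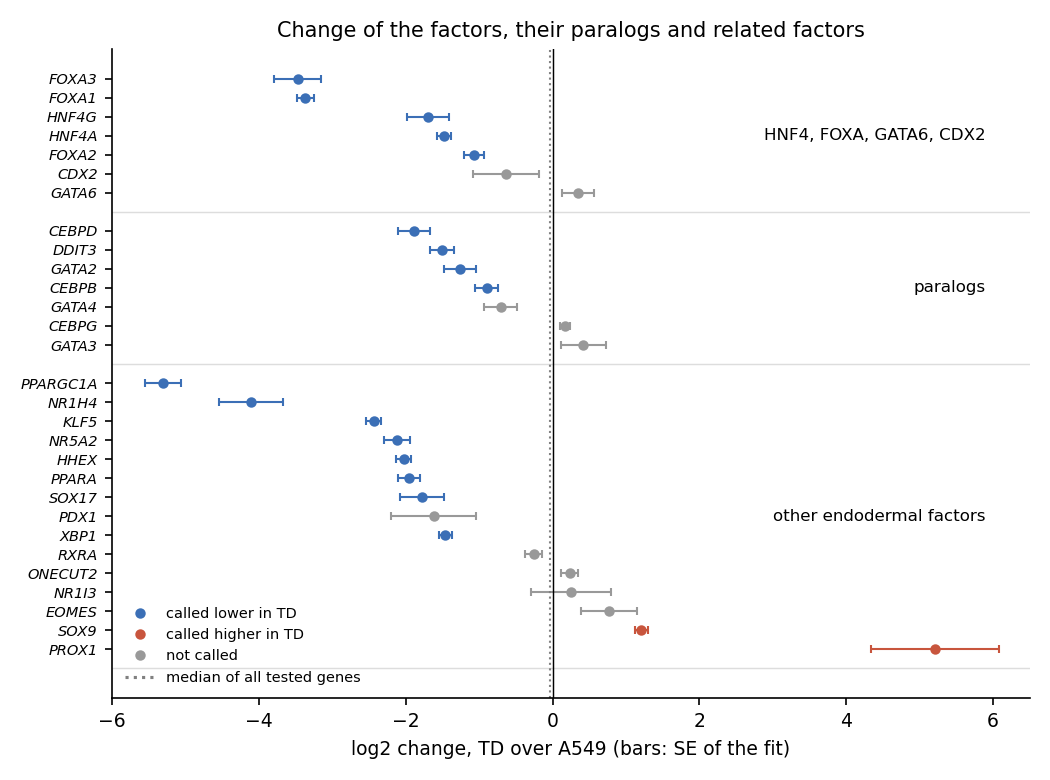
Log2 change of TD over A549 for tested genes among the 8 factors, their paralogs and related network factors (not every listed factor is drawn). Points are fitted changes, bars are SE of the fit, colours mark called genes, and the dotted line is the median of all tested genes (-0.04); ONECUT3, with no count in TD, is not drawn. FOXA3 and FOXA1 lie near -3.4, while GATA6 (0.35) lies to the right of 0.

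Noncoding genes beside these factors were low. LINC00261, a neighbour of FOXA2, was at 1.33 CPM in A549 against 0.841 CPM in TD, not a called change (edgeR, adjusted p = 0.162). CEBPA-DT, which lies head to head with CEBPA, had 29 and 35 counts in A549 against 22 and 24 in TD, not a called change either (0.137). The counts of CEBPA-DT were thus even within each line where those of CEBPA were not. LINC00261 was called lower without TD replicate 2 (adjusted p = 0.0428 by edgeR). CEBPA-DT was called lower with pseudogenes left out (0.0427) and without TD replicate 1 (0.0265). HNF4A-AS1 and GATA6-AS1 had at most 5 counts in any library and HNF4GP1 had none. The strand setting of the counting is not given in the sources used here, so values of antisense partners are uncertain.

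Genes listed as liver-type, gut-type or lung and secretory targets of such factors were mostly lower where they could be tested. Whether the 8 factors act on each of these genes here was not tested. Many of them, such as F7, passed the filter on low counts through the A549 libraries alone, so the counts and medians describe the tested genes and not the whole lists. Of 27 liver-type genes, 26 were matched and 11 tested, of which 8 were called lower and 2 higher, with a median log2 change of -4.49. Over all tested genes the shares were 21.4% lower and 21.6% higher, which also stand beside the gut-type and the lung and secretory counts. F7, coagulation factor VII, had 235 and 203 counts in A549 and 0 in TD, at least 177-fold lower. APOA1, the main protein of high-density lipoprotein, had 84 and 74 counts and then 0, at least 63.8-fold lower. F10, coagulation factor X, and TAT, tyrosine aminotransferase, each had 39 counts in A549 and 1 in TD. That is a 47.3-fold reduction by counts, with a counting interval of 8.00 to 1914. The 2 that rose were AFP, the fetal counterpart of albumin, from 0.0348 to 0.812 CPM, and SERPINA1, alpha-1 antitrypsin, from 2.60 ± 0.473 to 5.34 ± 0.727 CPM. Both lost their call without A549 replicate 1 or replicate 2 but stayed higher. The log2 changes were 4.45 and 4.34 for AFP and 0.86 and 1.22 for SERPINA1. F10 and TAT lost their calls without either A549 library too, with log2 changes of -4.94 and -5.57 for F10 and -5.26 and -5.30 for TAT.

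Of 18 gut-type genes, 8 were tested, of which 7 were called lower and 1 higher. The median log2 change was -7.43 by the fit and -3.97 with genes at 0 in TD set at their bound. VIL1 and MYO1A, structural proteins of microvilli, went from 162 to 0.0837 CPM and from 32.4 to 0.0837 CPM, on 6 TD counts each. CEACAM5 and ALPI, intestinal alkaline phosphatase, had 0 counts in TD, at least 82.0-fold and 25.4-fold lower. Reads without a unique alignment were given to no gene, so reads shared by near-identical CEACAM genes may be missing. ANPEP, the brush border peptidase CD13 that mesenchymal cells also carry, rose from 2.74 ± 0.591 to 145 ± 10.8 CPM (adjusted p = 5.41e-05 by edgeR). ALPI, MUC2 and LGALS4 were not called without either A549 library, with LGALS4 at log2 changes of -2.58 and -2.46. MUC2 was not called with the replicate number as a block either (adjusted p = 0.0873 by edgeR). CDX1, a CDX2 paralog that is a gut factor itself, had no count, as given above.

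Of 17 lung and secretory genes, 9 were tested, 7 were called lower and 1 higher, with a median log2 change of -6.44. AGR2, a disulfide isomerase of mucus cells, went from 492 ± 41.3 to 4.23 ± 0.136 CPM. SPDEF, the factor that drives mucous cell fate, went from 26.7 ± 0.344 to 0.285 ± 0.0137 CPM (edgeR log2 change -6.52 with an SE of 0.13, adjusted p = 3.08e-05). The mucins MUC5B and MUC5AC fell by 643-fold and by at least 292-fold. Among the genes called lower, SFTPD was not called without A549 replicate 1 or replicate 2 (log2 changes -6.25 and -6.58). LPCAT1 was not called without A549 replicate 1 (log2 change -0.43). ABCA3, the lipid pump of alveolar cells, was called higher, with means of 28.1 (A549) and 47.4 CPM (TD). It was not called without A549 replicate 1 or replicate 2 (log2 changes 0.77 and 0.72). Of 10 C/EBP-type genes of fat and myeloid cells only PPARG, the adipocyte nuclear receptor, could be tested, and it rose from 18.9 ± 0.548 to 50.7 ± 2.37 CPM (log2 change 1.42, adjusted p = 0.000293 by edgeR). The other 9 had at most 7 counts in any library.

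**Figure D4:**
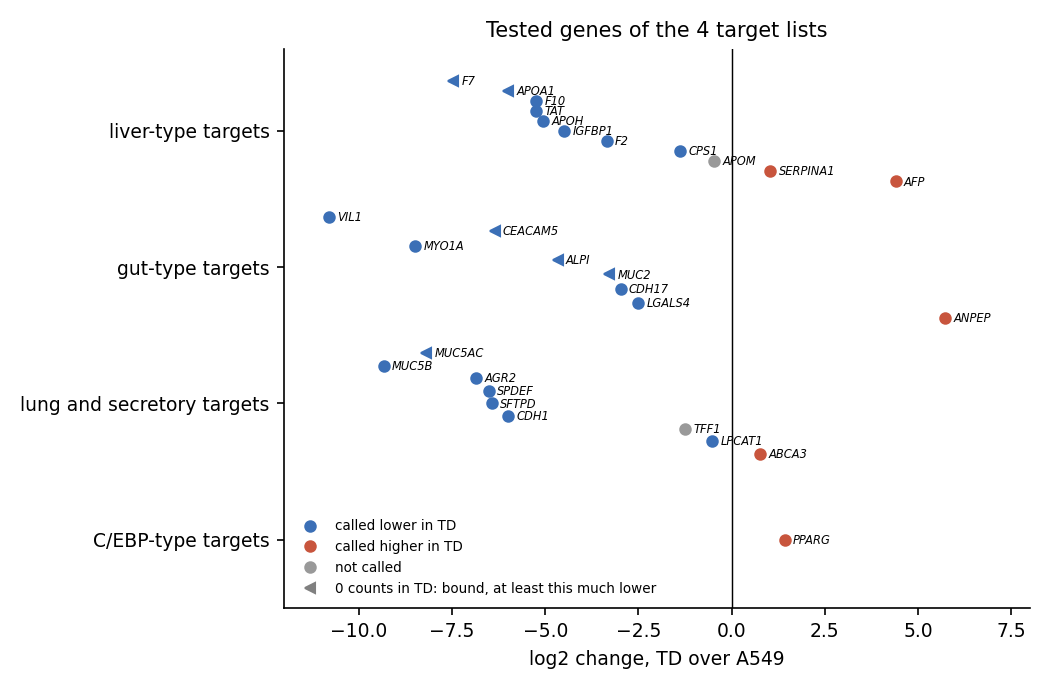
Log2 change of TD over A549 for the tested genes of the liver-type, gut-type, lung and secretory, and C/EBP-type lists. Circles are fitted changes, triangles are bounds for genes with 0 counts in TD, and colours mark called genes; AFP, SERPINA1, ANPEP, ABCA3 and PPARG lie to the right of 0 and most others far to the left.

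The protein-coding genes most like each called factor were found by Euclidean distance between centred log2 CPM profiles over the 4 libraries, among 12292 genes with at least 1 CPM in the higher group. For HNF4A they were PGD (distance 0.0201) and TBC1D14 (0.0258). For HNF4G, FAM83H (0.172) was among them. For FOXA1 they were ARHGAP26 (0.0502) and DUSP5 (0.0806), for FOXA2 PER1 (0.0378) and TTC7A (0.05), and for FOXA3 RBP4 (0.109) and ANO9 (0.124). Over 4 libraries in 2 groups, such a distance measures mainly how alike the sizes of change are.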

How the data were processed

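The deposited values are raw read counts per Ensembl gene, 1 file per library. FastQC 0.11.8, STAR 2.7.1a and HTSeq 0.11.2 and the build hg19 (GRCh37) appear as tools and reference per the submitters' processing notes. No source used here gives the annotation release, the strand setting or read filters. Reads that HTSeq gave to no gene (17.0% to 18.6% of counted reads) stayed out of all steps. Symbols were matched by identifier for 51996 of 57820 genes, and gene types and exon lengths came from GENCODE 29, which is on GRCh38. No pair of libraries held identical values.

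TD was compared with A549 on the whole table by the quasi-likelihood test of edgeR 4.0.16 (R 4.3.3) with TMM scaling, filterByExpr (minimum count 10) and Benjamini-Hochberg adjustment over all tested genes, with calls at an adjusted p under 0.05. The SE is the log2 change divided by the square root of F. Levels are mean ± SD of 2 libraries. A fold against a group at 0 sets 3 counts over the group, and intervals are 95% exact binomial ones. The script was tested on simulated data. Levels per kilobase used the union of exons.

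The members and lists were chosen with earlier results of these data known. Named outside the 8 factors are up to 4 called genes per direction with the largest change in each list, every listed neighbouring noncoding gene, the 2 nearest profiles of each called factor, and markers; members that were not called and genes whose calls changed were named after their values were seen. Some genes that the rule names are counted in their lists but not reported here by name. Alternatives were DESeq2 1.42.0 (size factors and test), limma-voom (limma 3.58.1), library totals, no filter, 5 CPM in 2 libraries, no pseudogenes, thinning, the replicate number as a block, and each library left out with the tested genes kept.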

Additional observations from a re-analysis of the deposited data

How the results depend on the processing

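Over 13 alternatives, HNF4A and FOXA1 kept their calls throughout, with log2 changes of -1.55 to -1.40 and -3.44 to -3.34, and FOXA3 kept its call in the 12 that tested it (-3.89 to -3.17). None of the 7 tested members changed direction; CEBPA, fitted only with no filter, turned from lower to slightly higher by CPM without A549 replicate 1 (0.0337 against 0.0369 CPM). The labels do not tell whether same-numbered libraries are paired. Across genes, deviations of same-numbered libraries had a correlation of -0.068. That value rests on 1 difference per line, so it cannot settle pairing. With the replicate block, 5 members were called lower and 0 higher, as without it. With libraries left out, 0 to 1 members were called higher and 3 to 5 lower; other endodermal factors 1 to 4 higher; paralogs 0 to 1 higher and 2 to 5 lower; liver-type genes 0 to 2 higher; gut-type genes 4 to 7 lower; lung and secretory genes 0 to 1 higher. These ranges name only the directions whose count moved by at least 1.5-fold in some fit. Lower calls of other endodermal factors, liver-type genes and lung and secretory genes moved by less and are not listed. In the same fits the calls over all tested genes changed in both directions, so the ranges show no change particular to a list. The biological coefficient of variation was 20.1% with all libraries. It was 32.7% and 33.4% without A549 replicate 1 and 2, and 7.06% and 7.11% without TD replicate 1 and 2. With all libraries kept and pseudogenes left out it was 7.9%, so low values were not particular to fits without a TD library. The adjusted p of HNF4A by edgeR was 6.39e-09 in that setting, against 0.000334. The filter of 5 CPM left 11175 genes tested, of which 3328 were called lower and 3277 higher. Of the members it kept only HNF4A, FOXA1 and FOXA2, and all 3 were called lower. It gave 1 other endodermal factor higher, 0 liver-type genes higher and 5 lower, and 3 gut-type genes lower. DESeq2's test called 1 paralog higher. With no filter, 1 C/EBP-type gene was called lower. The cause of the remaining differences was not tested. Over all genes the calls ranged from 3366 without A549 replicate 1 to 11064 without TD replicate 1, against 7642. Levels per kilobase kept their order with the longest transcript in place of all exons. CDX2 and CEBPA had the fewest counts of the members, at most 15 in a library.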
